A study of Rattus norvegicus with 2 samples.

Results

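The genes described here belong to the insulin, insulin-like growth factor (IGF), mTOR and AMPK signalling pathways, as measured in the liver of male rats of the outbred Wistar strain. A list of 47 genes was matched to the probe sets annotated to exactly 1 gene, and 46 were represented among 14217 genes in all, with Pik3cb not analysed here. The list names genes by pathway and was drawn up with earlier results of these arrays known. Each gene was taken from its probe set of highest mean signal over the arrays, and 41 of the 46 were bright enough to count as measured, which here means a mean log2 signal of 5.37 or more (the median over probe sets, equal to a signal of 41.4). The 5 dim genes were Grb10, Igfbp5, Pik3r3, Prkab2 and Stk11.

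The series holds 2 Affymetrix arrays of liver RNA, 1 for rats given olive oil and 1 for fasted rats. Rats of the olive oil array, aged 2 months, had been without food for 18 h, received 5 ml of olive oil (16 ml per kg) by mouth and were killed 4 h later. Rats of the fasted array, also aged 2 months, had the same 18 h fast and no fat meal. The labels state neither how many livers went into each array nor whether the fasted rats waited the additional 4 h, so length of fast and oil cannot be told apart. With 1 array per group there is no replicate check, no error over animals and no test, and every difference below compares these 2 arrays, in liver RNA where fewer cells of a type and less RNA per cell cannot be told apart.

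Insulin and IGF1 bind receptor tyrosine kinases that phosphorylate the insulin receptor substrates, which recruit phosphoinositide 3-kinase (PI3K) and activate the kinase AKT. AKT restrains the forkhead transcription factors FOXO1 and FOXO3 and the glycogen synthase kinases, and relieves the brake that the TSC1 and TSC2 proteins put on mTOR, the kinase that drives protein synthesis. AMPK, switched on when cellular energy is low and by the kinase LKB1, opposes mTOR. The liver supplies most of the circulating IGF1 and much of its binding protein 1 (IGFBP1), a gene that insulin switches off through FOXO factors.

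Because Igfbp1 is the textbook example of a gene with an insulin response element in its promoter, the RefSeq promoter sequences of 4 secreted IGF-system genes are shown (GRCr8 build, from 250 bases before to 50 after the annotated start, 5′ to 3′ on the gene's own strand). The 2 binding protein genes past 1.5-fold higher after oil, the ligand gene and the gene with the lowest difference of all members were chosen. Capitals mark GTAAACA or CAAAACA, letters bound by forkhead factors, searched on both strands.
Igfbp1 (chr14:86261027-86261326, plus strand): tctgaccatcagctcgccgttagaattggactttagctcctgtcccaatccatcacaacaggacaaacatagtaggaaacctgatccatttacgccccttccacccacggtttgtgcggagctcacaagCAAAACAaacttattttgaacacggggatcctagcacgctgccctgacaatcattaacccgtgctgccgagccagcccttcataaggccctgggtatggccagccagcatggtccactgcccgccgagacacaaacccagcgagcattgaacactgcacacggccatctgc
Igfbp6 (chr7:135154669-135154968, plus strand): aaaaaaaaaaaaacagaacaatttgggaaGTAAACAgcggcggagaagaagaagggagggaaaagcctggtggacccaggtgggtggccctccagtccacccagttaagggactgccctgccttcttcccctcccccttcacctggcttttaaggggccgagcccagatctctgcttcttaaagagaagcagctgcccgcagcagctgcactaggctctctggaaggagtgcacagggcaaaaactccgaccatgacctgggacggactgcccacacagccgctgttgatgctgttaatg
Igf1 (chr7:24172282-24172581, plus strand): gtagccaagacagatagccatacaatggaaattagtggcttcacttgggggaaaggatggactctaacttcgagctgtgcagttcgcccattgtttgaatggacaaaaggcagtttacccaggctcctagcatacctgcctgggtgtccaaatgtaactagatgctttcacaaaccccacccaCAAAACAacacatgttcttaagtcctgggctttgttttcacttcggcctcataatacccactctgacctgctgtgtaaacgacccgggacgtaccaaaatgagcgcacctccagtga
Igfals (chr10:14403600-14403899, plus strand): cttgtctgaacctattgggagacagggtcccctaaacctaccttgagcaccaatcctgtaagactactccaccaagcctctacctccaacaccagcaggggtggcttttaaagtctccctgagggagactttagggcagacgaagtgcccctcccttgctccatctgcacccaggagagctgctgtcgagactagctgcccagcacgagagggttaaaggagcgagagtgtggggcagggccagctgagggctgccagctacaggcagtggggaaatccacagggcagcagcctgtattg
The match began 121 bases before the start in Igfbp1, 221 before it in Igfbp6 and 67 before it in Igf1, and Igfals had none in this window.

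The same letters were sought in the 43 promoter windows found for 42 of the members, Prkag2 having 2 windows, while Irs2, Foxo3, Rptor and Deptor had no entry. GTAAACA stood in 7 of the 43, against 3.78% of all 33469 promoter windows. Its holders were Igfbp6, Crtc2, Pik3ca, Insr, Phlpp1, Tsc1 and Stk11. CAAAACA stood in 3 of the 43, those of Igfbp1, Igf1 and Mtor, against 6.28% of all windows. Of the 9 measured genes with either motif, 4 had a positive and 5 a negative log2 difference between the arrays. TGACG, the core of the cyclic AMP response element and also contained in its full form, occurred in 14 windows (21.2% of all). The full element TGACGTCA (1.83% of all windows), the STAT motif TTCNNNGAA (8.87%) and the palindromic glucocorticoid response element (0.0149%) occurred in none of the 43. These are matches of letters and not shown to be bound sites.

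The arrays had much the same brightness, with a median signal of 44.7 after olive oil and 42.5 in fasted rats over 31042 probe sets. The 3′ to 5′ signal ratio of the beta-actin control, a sign of RNA integrity, was 3.20 after olive oil and 2.63 in fasted rats. For the GAPDH control this ratio was 1.34 after olive oil and 1.28 in fasted rats. The liver origin was borne out by albumin (Alb) at 17984 after olive oil and 17154 in fasted rats. Differences below are log2 signals, olive oil minus fasted. Measured probe sets of the same gene scattered around their mean difference with a standard deviation of 0.35, pooled over 2290 genes. That is probe error and holds no variation between rats.

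Across the pathway the shares past 1.5-fold stayed close to those of all measured genes. Fewer members lay within 1.2-fold, 39.0% against 49.9% of all measured genes. After olive oil, 4 of the 41 measured members were higher by 1.5-fold or more (Igfbp6, Foxo1, Igfbp1 and Prkaa1), which is 9.76% of them against 9.46% of all 9208 measured genes. Lower by as much were 3 (Igfals, Prkag2 and Irs1), or 7.32% of the members against 10.1% of all measured genes. Neither share stands out from its background. At the stricter size of 2-fold, 1 member (Igfbp6) was higher and 3 were lower, beside 3.25% and 2.94% of all measured genes. Igfbp6 passed the filter on dim probe sets through its signal after olive oil, being below 41.4 in fasted rats, so that it had to differ and its place in both counts supports nothing. The median log2 difference was 0.04 over the members and -0.01 over all measured genes. Just short of 1.5-fold lay Ptpn1 at 0.58, Irs2 at 0.54 and Mtor at -0.54.

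**Figure D1:**
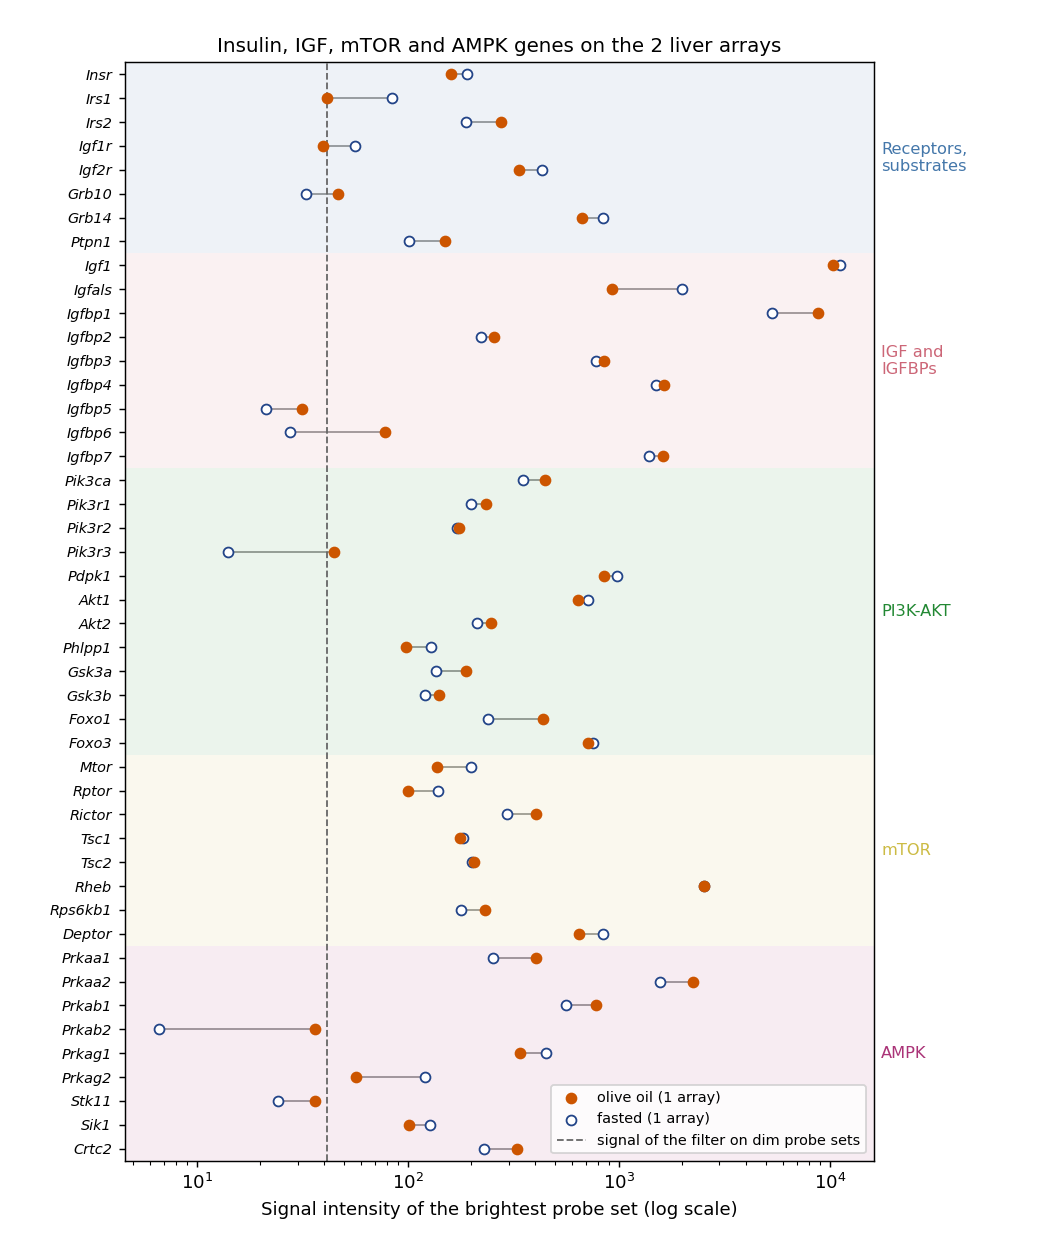
Signal intensity (log axis) of the brightest probe set of the 46 represented genes on the olive oil array (filled) and the fasted array (open), 1 array each, with a line joining them; the dashed line is the signal of 41.4 behind the filter on dim probe sets. Most pairs lie close together, while Prkab2, Pik3r3 and Igfbp6, each dim in fasted rats, are the furthest apart, and Igfals, Prkag2, Irs1 and Foxo1 are apart as well.

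**Figure D2:**
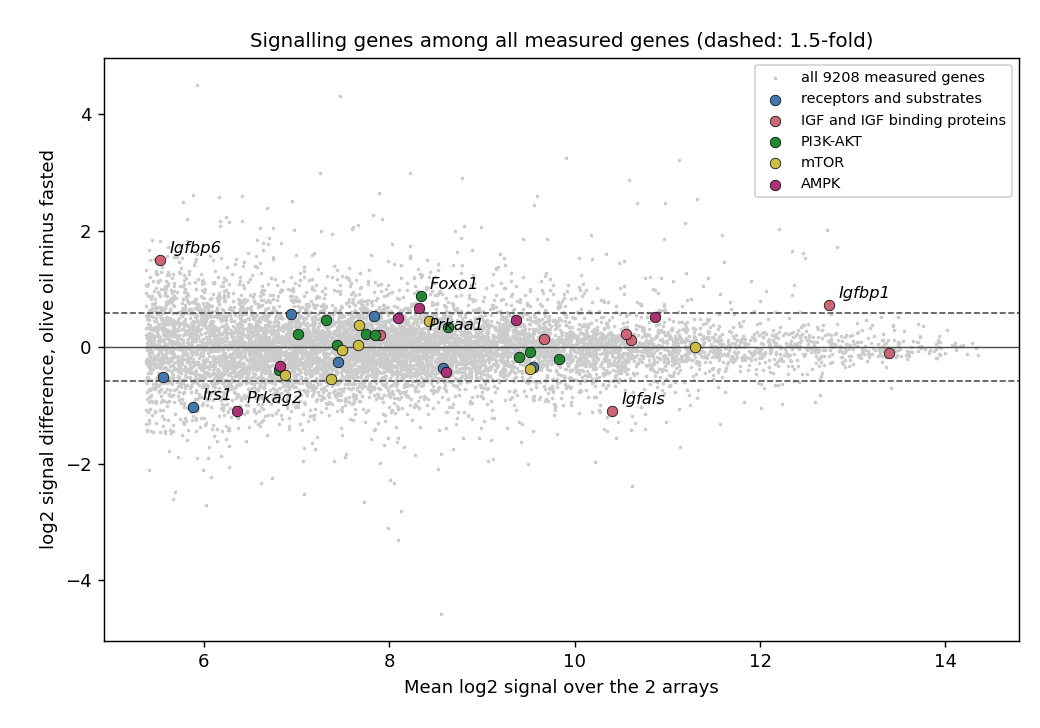
Log2 signal difference (olive oil minus fasted) against mean log2 signal over the 2 arrays, for all 9208 measured genes (grey) and the 41 measured members (coloured by role), with dashed lines at 1.5-fold. The 7 labelled members lie outside the lines, and the scatter of all genes is wider where the signal is low.

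Among receptors and their substrates, Irs1 had the largest difference on the brightest probe sets, though other measured probe sets of Ptpn1 and Insr differed by more. Irs1, the docking protein that links the insulin and IGF1 receptors to PI3K, had a signal of 41.5 after olive oil and 84.2 in fasted rats, 2.03-fold lower (log2 -1.02), on its only probe set. Its relative Irs2, the other main docking protein of liver, went the other way, with 275.0 after olive oil and 189.6 in fasted rats, 1.45-fold higher and under the 1.5-fold size. The signal of Irs1 on the olive oil array was close to the filter, and among the 921 measured genes in its decile of mean signal 6.41% were at least as far below 0. For Irs2 the share at least as far above 0 was 11.5% of its decile.

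None of the 3 receptor genes passed 1.5-fold on its brightest probe set. Insr, the insulin receptor, gave 159.7 after olive oil and 190.9 in fasted rats (log2 -0.26) on its brightest probe set, and 42.1 after olive oil and 86.2 in fasted rats (log2 -1.03) on another. Its size therefore depends on the probe set, with -0.65 for their mean. Igf1r, the IGF1 receptor, stood at 39.5 after olive oil and 56.3 in fasted rats (log2 -0.51), close to the dim range, and a dim second probe set gave 0.61. Igf2r, which clears IGF2 and carries lysosomal enzymes, had 336.9 after olive oil and 432.5 in fasted rats, with log2 differences of -0.36 and 0.02 on its 2 measured probe sets. For Igf1r the mean with its dim probe set was 0.05, so that the receptor genes had no shared direction over their probe sets.

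Inhibitors of the receptor differed in direction. Ptpn1, the phosphatase that removes phosphate from the insulin receptor, read 150.6 after olive oil and 101.0 in fasted rats, 1.49-fold higher. Its second measured probe set showed 168.9 after olive oil and 74.4 in fasted rats, 2.27-fold higher, so that Ptpn1 passed the 1.5-fold size when probe sets that may bind several transcripts were left out (log2 1.18). Grb14, an adaptor that blocks the receptor's kinase, had 670.2 after olive oil and 843.8 in fasted rats (log2 -0.33). The related adaptor Grb10 was dim at 46.8 after olive oil and 32.8 in fasted rats. In all, 2 of the 7 measured members of this group were positive and 5 negative, with a median of -0.33. Igf1r, among the negative ones, was below the filter signal of 41.4 after olive oil. It counted as measured only through the fasted array, so that it had to be negative and its place in the count supports nothing.

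Of the 8 measured genes of the IGF system, 2 were higher and 1 lower by 1.5-fold or more. These are 25% and 12.5%, beside 9.46% and 10.1% of all measured genes. Igfbp6, 1 of the 2 higher, counted as measured only through the olive oil array, so its place in the count supports nothing. Igfbp1, which binds IGF1 and is induced by fasting, was already bright, at 8838 after olive oil and 5345 in fasted rats, 1.65-fold higher (log2 0.73). In its decile of signal, the brightest, 3.58% of 921 genes were at least as far above 0. Igfals, the acid-labile subunit that holds IGF1 and IGFBP3 in a long-lived circulating complex, had 929.4 after olive oil and 1982 in fasted rats, 2.13-fold lower (log2 -1.09). This was the lowest difference of all 41 members, and 1.95% of the 921 genes of like signal were at least as far below 0. Both genes have 1 probe set, and their differences ranged from 0.65 to 0.73 and from -1.17 to -1.08 over all processing alternatives.

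Igf1 itself, the hormone, was among the brightest genes of the arrays and near equal on them, at 10347 after olive oil and 11123 in fasted rats. All 3 of its probe sets were lower after olive oil, by log2 differences of -0.10, -0.25 and -0.46. Igfbp3, the main carrier of IGF1 in blood and partner of the acid-labile subunit, read 853.7 after olive oil and 775.6 in fasted rats (log2 0.14), with 0.02 on its other probe set. The acid-labile subunit thus differed from its partners in the ternary complex, whose differences were within the probe scatter on their brightest probe sets.

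The other binding proteins differed little or were dim. Igfbp2 had 256.4 after olive oil and 221.9 in fasted rats. Igfbp4 had 1630 after olive oil and 1502 in fasted rats. Igfbp7, a distant relative with weak IGF binding, had 1627 after olive oil and 1383 in fasted rats. The 3 log2 differences lay between 0.12 and 0.23. Igfbp6, which prefers IGF2, was dim in fasted rats, at 77.7 after olive oil and 27.5 in fasted rats, 2.83-fold higher as measured, against a signal below that of the filter. A second, dim probe set of Igfbp6 also had a higher signal, at 49.0 after olive oil and 17.7 in fasted rats. The size of this difference rested on how low signals were treated, with a log2 value of 0.83 when signals below the 50th percentile were raised to it and of 1.11 when 16 was added to every signal. Igfbp5 was below the filter, at 31.5 after olive oil and 21.3 in fasted rats.

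Several binding proteins are made outside hepatocytes, so markers of other cells were read beside them. Of 36 measured markers of cells other than hepatocytes, 5 passed 1.5-fold upward (13.9%, against 9.46% of all measured genes) and 1 downward (2.78%, against 10.1%). None was listed at 0 on both arrays. For the 10 stellate cell or fibroblast markers the summed signal was 3729 after olive oil and 3500 in fasted rats, with 2 past 1.5-fold higher, Dcn (363.6 after olive oil and 202.7 in fasted rats) and Acta2 (69.3 after olive oil and 43.6 in fasted rats), and 1 lower, Lrat. For 8 endothelial markers the sums were 6450 after olive oil and 5758 in fasted rats. Without Lyve1 (2741 after olive oil and 1798 in fasted rats) the other 7 summed to 3709 after olive oil and 3960 in fasted rats. The granulocyte genes S100a9 (253.1 after olive oil and 62.9 in fasted rats) and S100a8 (75.7 after olive oil and 32.0 in fasted rats) were the other markers past 1.5-fold. S100a8 lay below the filter signal of 41.4 in fasted rats, so it counted as measured only through the olive oil array. The other measured lymphocyte or granulocyte markers stayed under 1.5-fold, with log2 differences of -0.55 for Ptprc, -0.02 for Cd4 and 0.52 for Ncf1. Ncf1, at 35.3 in fasted rats, likewise counted as measured only through the olive oil array, so its sign supports nothing. The part of these cells in the Igfbp6 difference was not tested.

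**Figure D3:**
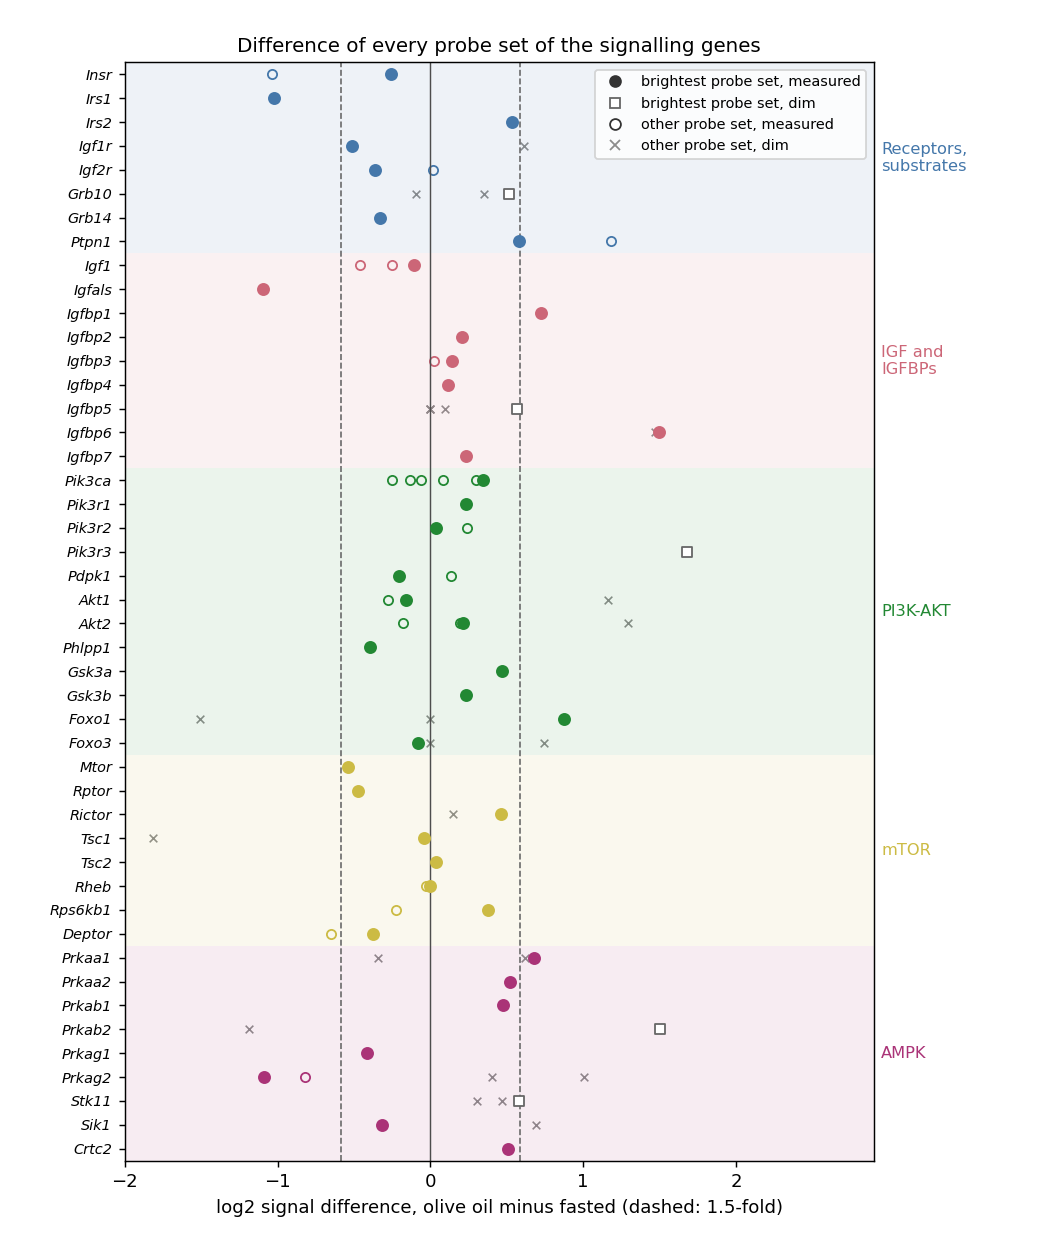
Log2 signal difference (olive oil minus fasted) of every probe set of the 46 represented genes, by role, with dashed lines at 1.5-fold; filled circles are the brightest probe sets, open circles other measured ones, squares dim genes and crosses other dim probe sets, where 0 stands for values below the floor on both arrays. Probe sets of Insr, Ptpn1 and Deptor share a sign but differ in size, and those of Foxo1 lie on both sides of 0.

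In the PI3K-AKT branch the forkhead factor Foxo1 alone passed 1.5-fold. It went upward, making 9.09% of the measured members against 9.46% of all measured genes, while 10.1% of all went downward by as much. Of 11 measured members, 7 lay within 1.2-fold, or 63.6%, against 49.9% of all measured genes, and Pik3ca, Phlpp1 and Gsk3a lay between these sizes. Foxo1, which switches on gluconeogenic genes when insulin is low, had 438.9 after olive oil and 239.0 in fasted rats, 1.84-fold higher (log2 0.88). Of the 921 genes of like signal, 3.26% were at least as far above 0. A dim probe set of Foxo1 pointed the other way, at 22.7 after olive oil and 64.6 in fasted rats, and the mean over its 3 probe sets was -0.21, so the direction rests on the brightest. Foxo3, its relative, read 712.4 after olive oil and 753.9 in fasted rats (log2 -0.08).

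The PI3K genes encode a catalytic and a regulatory subunit. Pik3ca, the catalytic subunit p110-alpha, had 448.2 after olive oil and 353.0 in fasted rats (log2 0.34), but its 6 measured probe sets ranged from -0.25 to 0.34. Pik3r1, the main regulatory subunit, had 234.2 after olive oil and 198.9 in fasted rats (log2 0.24). Pik3r2, another regulatory subunit, had 175.3 after olive oil and 170.7 in fasted rats (log2 0.04). None of these moved past the scatter between probe sets. Pik3r3 was dim, with 44.8 after olive oil and 14.0 in fasted rats, and its log2 difference of 1.68 shrank to 0.04 once signals below the 50th percentile were raised to it.

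The kinases that pass the signal on had small differences. Pdpk1, which phosphorylates AKT, stood at 851.1 after olive oil and 982.1 in fasted rats, with -0.21 and 0.13 on its 2 probe sets. Akt1, the broadly expressed isoform of AKT, had 639.5 after olive oil and 715.0 in fasted rats (log2 -0.16). Akt2, the isoform tied to insulin action in liver, had 247.4 after olive oil and 213.0 in fasted rats (log2 0.22). The 2 AKT genes thus lay on opposite sides of 0 by amounts below the probe scatter. Both glycogen synthase kinase genes, whose products restrain glycogen synthase until AKT inactivates them, stayed under 1.5-fold. Gsk3a had 188.6 after olive oil and 136.1 in fasted rats (log2 0.47). Gsk3b had 140.7 after olive oil and 119.9 in fasted rats (log2 0.23). The phosphatase gene Phlpp1, whose product inactivates AKT, had 98.1 after olive oil and 129.0 in fasted rats (log2 -0.40). Pdpk1, Akt1, Akt2, Gsk3a, Gsk3b and Phlpp1 all stayed under 1.5-fold on their brightest probe sets.

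None of the 8 genes of the mTOR branch, all measured, reached 1.5-fold on its brightest probe set. Of all measured genes, 9.46% were higher and 10.1% lower by as much. Mtor did reach 1.5-fold (log2 -0.61) once each array was centred on its median. The kinase gene Mtor had 137.6 after olive oil and 199.6 in fasted rats, 1.45-fold lower (log2 -0.54). Rptor, the scaffold of mTOR complex 1, had 99.8 after olive oil and 138.4 in fasted rats (log2 -0.47). Rictor, the scaffold of the other mTOR complex, lay on the opposite side of 0, at 405.2 after olive oil and 294.8 in fasted rats (log2 0.46). Thus the 2 scaffold genes differed in sign by similar amounts, each below the fixed size and on 1 measured probe set.

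Deptor, an inhibitor that binds mTOR, read 646.4 after olive oil and 838.5 in fasted rats (log2 -0.38), and -0.65 on its other measured probe set. The upstream switch was flat. Rheb, the small GTPase that activates mTOR complex 1, had 2525 after olive oil and 2526 in fasted rats, with differences of -0.0008 and -0.03 on 2 probe sets. Tsc2, the GTPase-activating protein that turns Rheb off, had 205.6 after olive oil and 200.9 in fasted rats (log2 0.03). Its partner Tsc1 had 177.4 after olive oil and 182.9 in fasted rats (log2 -0.04), although averaging it with a dim probe set gave -0.93. On their brightest probe sets Rheb, Tsc1 and Tsc2 were thus level between the arrays. The S6 kinase gene Rps6kb1, a target of mTOR complex 1, had 232.5 after olive oil and 179.3 in fasted rats, with 0.37 and -0.23 on its 2 probe sets. Over the branch the median was -0.02.

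In the AMPK branch 1 of 7 measured members, Prkaa1, passed 1.5-fold upward and 1, Prkag2, downward. Each is 14.3% of the measured members, beside 9.46% upward and 10.1% downward of all measured genes. Prkaa1, the catalytic alpha-1 subunit, had 405.0 after olive oil and 253.7 in fasted rats, 1.60-fold higher (log2 0.67). A dim probe set of it gave 0.62 and the mean over its 3 probe sets 0.32. Prkaa2, the alpha-2 subunit, had 2240 after olive oil and 1562 in fasted rats, 1.43-fold higher, and 5.65% of the genes in its bright decile were at least as far above 0. Prkab1, the beta-1 subunit that ties the complex together, had 780.2 after olive oil and 561.0 in fasted rats, 1.39-fold higher. These 3 subunits thus differed by similar factors, of which Prkaa1's alone passed 1.5-fold.

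Prkag2, a gamma subunit that senses AMP, had 56.5 after olive oil and 120.0 in fasted rats, 2.12-fold lower (log2 -1.09), and -0.82 on its other measured probe set. With its 2 dim probe sets averaged in, which were higher after oil, the difference was -0.12. Prkag1, the common gamma subunit, had 338.5 after olive oil and 451.9 in fasted rats, 1.34-fold lower. Prkab2 was dim, with 36.3 after olive oil and 6.6 in fasted rats, and its 2 probe sets disagreed in sign. The upstream kinase gene Stk11 (LKB1) was dim as well, at 36.2 after olive oil and 24.2 in fasted rats.

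Crtc2 and Sik1, which link AMPK-related kinases to the glucagon response, stayed under 1.5-fold. Crtc2, the coactivator that glucagon sends to the nucleus to raise gluconeogenic genes, had 327.3 after olive oil and 229.8 in fasted rats, 1.42-fold higher. Sik1, the AMPK-related kinase that keeps CRTC2 out of the nucleus, had 101.6 after olive oil and 126.8 in fasted rats, 1.25-fold lower, and its mean with a dim probe set was 0.19. None of the 7 measured members of the AMPK branch lay within 1.2-fold, against 49.9% of all measured genes. They were split, 4 positive and 3 negative, from -1.09 to 0.67. The branch's median of 0.48, the value of Prkab1, was the highest of the 5 role groups, beside -0.01 over all measured genes, but the branch had no shared direction.

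Where probe sets could be compared, the members were as concordant as genes in general. Of 14 members with several measured probe sets, 9 had the same sign on all of them, or 64.3%, against 63.2% of 2290 such genes. Among the 7 members past 1.5-fold, Prkag2 alone had a second measured probe set.

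Partners of the same pathways that are not on the list were counted from lists written by role with earlier results of these arrays known. Of 89 measured partners, 14 passed 1.5-fold upward and 17 downward, 15.7% and 19.1%, beside 9.46% and 10.1% of all measured genes, and the median was 0.02. These counts include Sh2b2, Tbc1d1, Inpp5d, Telo2, Slc38a9 and Sgk2, each below the filter signal of 41.4 on 1 array. Such genes counted as measured only through the array where they were high, so their places in the counts support nothing. Receptor partners had 1 of 14 higher, the adaptor Sh2b2 at the 1.5-fold size itself, and 2 lower, Gab1 (109.9 after olive oil and 191.4 in fasted rats) and Sh2b1, whose probe sets disagreed in sign. Of the 16 measured AMPK partners, 3 were higher, Acaca, Sik2 and Tbc1d1, and 1 lower, Nuak2. Acaca, the acetyl-CoA carboxylase that AMPK phosphorylates, had 527.1 after olive oil and 321.9 in fasted rats, 1.64-fold higher with like values on 2 probe sets.

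Genes that govern IGF supply contained 4 of 10 lower by 1.5-fold or more and none higher by as much, beside 10.1% and 9.46% of all measured genes. Besides the growth hormone feedback genes Socs2 (56.8 after olive oil and 324.9 in fasted rats) and Cish (74.3 after olive oil and 247.1 in fasted rats), these were Stat5a and Igf2bp3. Stat5a, a signal carrier of the growth hormone receptor, had 54.8 after olive oil and 100.2 in fasted rats. Its close relative Stat5b went the other way, under 1.5-fold, at 146.6 after olive oil and 107.7 in fasted rats. Igf2bp3, a messenger-binding protein, had 154.6 after olive oil and 476.5 in fasted rats, lower on all 3 of its probe sets. The receptor gene Ghr was level, at 5146 after olive oil and 5246 in fasted rats. Igfals, itself a gene induced by growth hormone, was lower beside Socs2 and Cish, whereas Igf1, another such gene, was near equal.

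Partners of PI3K and AKT were mixed, 5 of 19 being higher and 4 lower by 1.5-fold or more. These are 26.3% and 21.1%, beside 9.46% and 10.1% of all measured genes. Sgk2 and Inpp5d, among those lower, counted as measured only through the fasted array, so their places support nothing. All 3 tribbles genes, of which Trib3 is known to bind AKT, were higher, Trib1 by 1.58-fold, Trib2 by 1.85-fold and Trib3 by 1.74-fold, with log2 differences from 0.26 to 1.34 on its 3 probe sets. Them4, a regulator of AKT, had 109.8 after olive oil and 44.2 in fasted rats, and Ppp2ca, a catalytic subunit of protein phosphatase 2A, had 549.0 after olive oil and 237.2 in fasted rats. Sgk1, a kinase related to AKT, was 1.96-fold lower, at 626.0 after olive oil and 1230 in fasted rats. Its relative Sgk2 was dim after olive oil, at 38.3, against 139.0 in fasted rats. The lipid phosphatase genes Inppl1 and Inpp5d were also lower, the first with 0.01 on another probe set.

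Among the mTOR partners, 5 of 30 passed 1.5-fold upward and 6 downward, 16.7% and 20.0% beside 9.46% and 10.1% of all measured genes. Telo2 and Slc38a9, among those lower, counted as measured only through the fasted array, so their places support nothing. Rraga, a Rag GTPase that brings mTOR complex 1 to the lysosome, had 1526 after olive oil and 885.9 in fasted rats, 1.72-fold higher. Folliculin (Flcn), which acts on the Rag GTPases, had 432.9 after olive oil and 733.4 in fasted rats, 1.69-fold lower, and its binding partner Fnip2 had 607.4 after olive oil and 1123 in fasted rats, with -0.16 on its other measured probe set. Tfeb, the lysosomal transcription factor that mTOR restrains, had 209.1 after olive oil and 94.3 in fasted rats, 2.22-fold higher. Lpin1, a phosphatidate phosphatase that mTOR phosphorylates, Ddit4, an inhibitor of mTOR complex 1, and Mlst8, a subunit of both complexes, were the others above 1.5-fold. Sesn1, Sesn2, Slc38a9 and Telo2 were the others below it, with Sesn1 at 0.10 on another probe set.

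**Figure D4:**
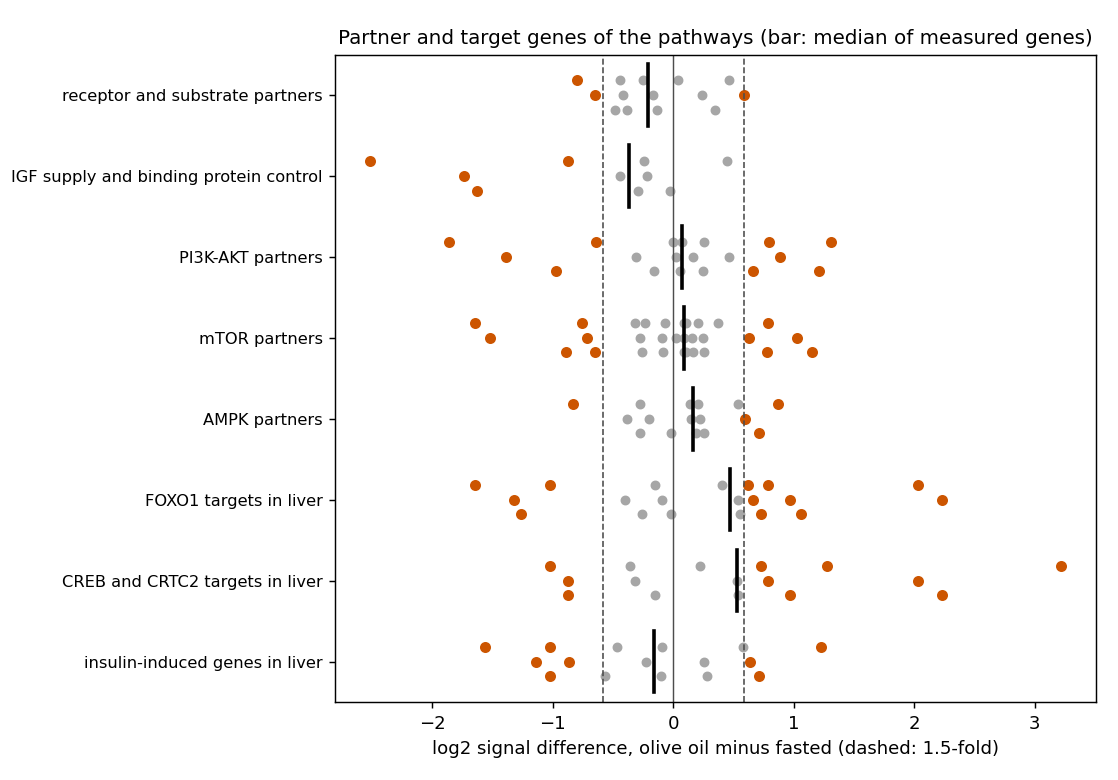
Log2 signal difference (olive oil minus fasted) of the measured genes in the 5 partner lists and 3 target lists, 1 point per gene, orange where at least 1.5-fold, with black bars at the list medians and dashed lines at 1.5-fold. The medians run from -0.37 for IGF supply to 0.53 for CREB and CRTC2 targets, and orange points lie on both sides in 7 of the 8 lists, that of Sh2b2 among the receptor partners standing on the dashed line itself.

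Liver genes known as targets of these pathways were counted likewise, from lists chosen with earlier results of these arrays known, so the counts are a description. Of 20 measured FOXO1 targets, 8 passed 1.5-fold upward and 4 downward, 40.0% and 20.0% against 9.46% and 10.1% of all measured genes, with a median of 0.47. Without Igfbp1, Irs2 and Insr, which are members themselves, these were 7 and 4 of 17, with a median of 0.40. Of 16 measured targets of CREB and CRTC2, 7 passed it upward and 3 downward, 43.8% and 18.8% against the same shares of all measured genes, with a median of 0.53. Without the members Igfbp1, Irs2 and Sik1 they were 6 and 3 of 13. The 2 lists share 7 measured genes, 35.0% of the FOXO1 and 43.8% of the CREB list, and 5 of the 7 were at least 1.5-fold higher. In the 13 FOXO1 targets outside the CREB list 3 were higher and 4 lower.

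The shared genes past 1.5-fold were Ppargc1a, Got1, Tat, Pdk4 and Igfbp1. Ppargc1a, a coactivator of gluconeogenic genes, had 164.2 after olive oil and 35.0 in fasted rats. The fasted value is below the filter signal of 41.4, so Ppargc1a counted as measured only through the olive oil array. Its place in the FOXO1, CREB and shared counts therefore supports nothing. Got1, an aminotransferase, had 9525 after olive oil and 2337 in fasted rats. Pdk4, which restrains pyruvate oxidation, had 4290 after olive oil and 2491 in fasted rats. Tat, tyrosine aminotransferase, had 6020 after olive oil and 3068 in fasted rats. Pck1, a gluconeogenic enzyme gene also in both lists, was near equal at 11140 after olive oil and 12346 in fasted rats. Outside the shared genes, FOXO1 targets past 1.5-fold upward were Klf15, with 2403 after olive oil and 1562 in fasted rats, Gadd45a, 2.08-fold higher, and Trib1. Those past it downward were Bcl6, with 438.5 after olive oil and 1095 in fasted rats, Ccng2, 2.40-fold lower, Sesn1 and Angptl8. Trib1 and Sesn1 were also counted among the partners, and Angptl8 is also in the list of insulin-induced genes, so these lists are not separate. In the CREB list alone, Sds, serine dehydratase, had 6796 after olive oil and 730.6 in fasted rats, the largest difference in any of these lists. Cebpb, a transcription factor of gluconeogenesis and the acute phase, had 3669 after olive oil and 1514 in fasted rats. The CREB-responsive immediate early genes Nr4a1, Nr4a2 and Dusp1 were lower, Dusp1 at 1887 after olive oil and 3464 in fasted rats.

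Genes that insulin induces in liver were split, 3 of 16 passing 1.5-fold upward and 5 downward, 18.8% and 31.2% against 9.46% and 10.1% of all measured genes, with a median of -0.16. Higher were Thrsp, Acaca, also counted among the AMPK partners, and Insig1. Insig1, which retains sterol-sensing proteins in the endoplasmic reticulum, had 2510 after olive oil and 1616 in fasted rats. Lower were Srebf1, Scd, Mid1ip1, Angptl8 and Pklr. Pklr, the liver pyruvate kinase gene, had 238.6 after olive oil and 433.3 in fasted rats, 1.82-fold lower.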

How the data were processed

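Liver RNA was labelled with biotin and hybridized to Affymetrix arrays per the labels' protocols, 1 array for rats given olive oil and 1 for fasted rats, grouped by their titles. The deposited values are linear signal intensities, 1 per probe set. Affymetrix Expression Console is named per the submitters' processing notes; the algorithm and version behind the signals were not stated there. The mean after trimming 2% at each end was 200.1 on both arrays, so that the values look scaled to a common level. The number of arrays limits the precision, and the values carry no detection call.

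The 57 control probe sets were left out of the other 31042. Signals below the 25th percentile (12.8) were raised to it and log2 was taken. Of these probe sets, 20826 were annotated to 1 gene, 436 to several and 9780 to none listed. Gene IDs gave current symbols in the GRCr8 RefSeq table for 20758. A gene was its probe set of highest mean signal and was measured when the mean log2 reached the median. Sizes of 1.5-fold and 2-fold took the place of a test. Equally bright genes were those in the same decile of mean log2 signal. All members are named, with the partner and target genes past 1.5-fold. The members and lists were chosen with earlier results of these data known. Functions were checked on simulated arrays. Alternatives were 3 normalizations, 3 floors or offsets, 2 filters, 2 probe set rules and the 2-fold size. Python 3.11.15, numpy 2.4.6, pandas 2.3.3, statsmodels 0.14.6 and matplotlib 3.10.9 were used.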

Additional observations from a re-analysis of the deposited data

How the results depend on the processing

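No paired analysis was possible because each group is 1 array and no test was made. The count of members at least 1.5-fold higher, 4, was between 3 and 6 in the normalizations, floors, filters and probe set rules tried, and 1 with the 2-fold size. The count of those lower, 3, stayed at 3 or 4 except at 1 with a filter at the 75th percentile, which left 27 members. The genes behind the counts changed more. With the mean over probe sets, Foxo1, Prkaa1 (0.32) and Prkag2 (-0.12) dropped out, while Ptpn1 (0.88), Insr (-0.65) and Tsc1 (-0.93) came in. The share of all measured genes moved too, to 12.8% higher without a filter and to 7.61% higher and 12.7% lower with arrays centred on their medians. The median log2 difference of 0.04 was -0.034 with arrays centred on their medians, 0.17 without a filter and 0.21 with the filter at the 75th percentile. Of 408 values of the measured members under these alternatives, 397 lay within the probe scatter of 0.35 of the reported value. The count of 397 is no measure of stability, because part of it was fixed in advance. Changing the filter could not alter a member's value, and leaving out the floor altered no measured member. Of the rest, 10 moved further and 1 reversed a difference past 1.5-fold, that of Foxo1 at -0.21 when its probe sets were averaged. Averaging also moved Insr, Igf1r, Akt1, Tsc1, Prkaa1, Prkag2 and Sik1. The other moves were those of Ptpn1 and Igfbp6 given above. The cause was not tested. Low signals limit Igfbp6, Irs1, Igf1r and the 5 dim genes most.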
